A study of Mus musculus with 2 samples.

Results

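The gasdermin genes were followed in RNA sequencing of regulatory T cells (Treg cells) taken from the colon lamina propria of female mice. The 6 members were taken by gene symbol (Gsdmc, Gsdmc2, Gsdmc3, Gsdmc4, Gsdma and Gsdmd) from a table of 55246 loci, and all 6 were listed. They were chosen on the read counts of these same libraries, which differ for some of them, so the difference between genotypes is given below as a description and carries no test. The study compared 2 genotypes. One was WT, and the other, labelled Exon2KO, carries a Foxp3 allele without exon 2, and 1 library was made of each. Mouse strain, age, the sorting scheme and the number of mice behind a library are not given in the sources used here. With 1 library per genotype the spread between samples is unknown, and every interval below covers counting error only.

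Gasdermins are a family of proteins whose N-terminal part, once cut free by a protease, inserts into membranes and forms pores. Such pores release cytokines of the interleukin-1 family and can end in the lytic cell death called pyroptosis. GSDMD is the family member cut by the inflammatory caspases downstream of the inflammasome and is widely expressed in immune cells. GSDMA is best known from skin and GSDMC from epithelium. In the mouse the Gsdmc genes form a tandem cluster, and in the gut these genes are known from epithelial cells and for their response to the type 2 cytokines IL-4 and IL-13.

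The gene counts summed to 16281133 reads in WT and 15412425 in Exon2KO, so 0 reads allow up to 1.84e-05% and 1.95e-05% of these totals (3 reads). After scaling by the trimmed mean of M values (TMM), the T cell genes Cd3e, Cd4, Cd3d and Trac were abundant in both libraries. They were within 2-fold, in both directions. Cd3e stood at 328 CPM (the usual count rate per library size, here TMM-scaled) in WT and 329 in Exon2KO, and Cd4 at 293 and 336. Cd3d and Trac had log2 ratios, Exon2KO to WT, of -0.25 (-0.30 to -0.21) and -0.44 (-0.48 to -0.40). Foxp3, the gene that carries the deletion, had 6991 and 20946 reads. These reads were counted over the whole gene and do not check the loss of 1 exon. Other Treg genes were not all within 2-fold. Ikzf2 had 8476 and 440 reads (-4.29, -4.44 to -4.16) and Tnfrsf18 had 34363 and 11626 (-1.59, -1.62 to -1.56). Ctla4 and Il2ra were within it, at 0.71 and -0.35. The libraries also held reads of other cell types, among them the plasma cell gene Jchain with 120089 and 113723 reads. In bulk libraries, fewer cells of a type and less RNA per cell cannot be told apart.

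The 4 Gsdmc genes lie next to each other on the minus strand of chromosome 15, from 63775968 to 63912297 (GRCm38), a span of 136 kb. How far their reads can be told apart sets how each gene's count can be read, so the sequences are given first. Their coding sequences, 1404 bases in Gsdmc and 1440 bases in each of the other 3, were taken from GENCODE M21. Gsdmc2 and Gsdmc3 were 97.3% identical over 1439 aligned coding bases, with 39 differences. Gsdmc4 was 95.01% identical to each of these, with 71 differences. Gsdmc was the most distant, at 88.6% to 89.6%. Between a Gsdmc gene and Gsdmd the identity was 71.9% to 73.5%. The following 120 coding bases, which cross an exon junction, are the stretch in which Gsdmc2, Gsdmc3 and Gsdmc4 are most alike. They are shown because a read inside them cannot be given to 1 of these 3 genes. The stretches run 5′ to 3′ on the minus strand of GRCm38, at chr15:63803713-63804460 (Gsdmc), chr15:63835067-63835814 (Gsdmc2), chr15:63868420-63869168 (Gsdmc3) and chr15:63902053-63902801 (Gsdmc4), introns included. Capitals mark bases that differ from Gsdmc4.
Gsdmc: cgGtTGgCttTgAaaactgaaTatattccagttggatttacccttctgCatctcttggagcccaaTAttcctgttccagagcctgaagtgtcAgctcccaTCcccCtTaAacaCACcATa
Gsdmc2: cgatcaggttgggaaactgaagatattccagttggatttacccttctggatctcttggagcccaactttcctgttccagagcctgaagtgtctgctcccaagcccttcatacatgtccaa
Gsdmc3: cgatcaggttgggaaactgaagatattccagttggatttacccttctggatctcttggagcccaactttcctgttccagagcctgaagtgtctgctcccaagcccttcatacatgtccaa
Gsdmc4: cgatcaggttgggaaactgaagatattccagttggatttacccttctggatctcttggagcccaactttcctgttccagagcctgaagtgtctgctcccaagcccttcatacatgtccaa

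In that stretch Gsdmc2 and Gsdmc3 had 0 differences from Gsdmc4, and Gsdmc had 21. The opposite case is the 120 coding bases in which the 3 genes are least alike, also across an exon junction. They are shown because reads there separate the genes, with 22 differences from Gsdmc4 in Gsdmc2, 19 in Gsdmc3 and 14 in Gsdmc. They lie at chr15:63778644-63779802 (Gsdmc), chr15:63826868-63828052 (Gsdmc2), chr15:63860298-63861471 (Gsdmc3) and chr15:63893815-63894958 (Gsdmc4), on the same strand.
Gsdmc: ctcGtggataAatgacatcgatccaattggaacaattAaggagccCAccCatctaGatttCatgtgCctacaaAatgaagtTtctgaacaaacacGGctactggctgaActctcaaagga
Gsdmc2: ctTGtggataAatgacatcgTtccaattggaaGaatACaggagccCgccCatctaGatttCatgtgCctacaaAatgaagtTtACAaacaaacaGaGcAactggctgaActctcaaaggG
Gsdmc3: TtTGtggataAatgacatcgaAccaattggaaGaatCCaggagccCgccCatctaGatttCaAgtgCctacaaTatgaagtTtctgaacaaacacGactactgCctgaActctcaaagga
Gsdmc4: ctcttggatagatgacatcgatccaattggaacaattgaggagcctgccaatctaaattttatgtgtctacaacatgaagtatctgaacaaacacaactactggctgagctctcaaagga

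Over whole transcripts, 71.4% of the 100-base windows of Gsdmc2, 71.6% of those of Gsdmc3 and 79.8% of those of Gsdmc4 occurred in no other gene of the annotation. For Gsdmc the share was 93.0%, for Gsdma 98.2% and for Gsdmd 100%. With windows of 50 bases the shares were 48.7% in Gsdmc2, 54.0% in Gsdmc3 and 61.0% in Gsdmc4. With 150 bases they were 85.1%, 82.0% and 91.2%. Most of the shared windows of Gsdmc2 and Gsdmc3 were shared between these 2 genes. The read length and the treatment of reads that match several places are not given in the sources used here. The counts of Gsdmc2, Gsdmc3 and Gsdmc4 are therefore uncertain one by one, while their sum depends less on the division of reads.

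**Figure D1:**
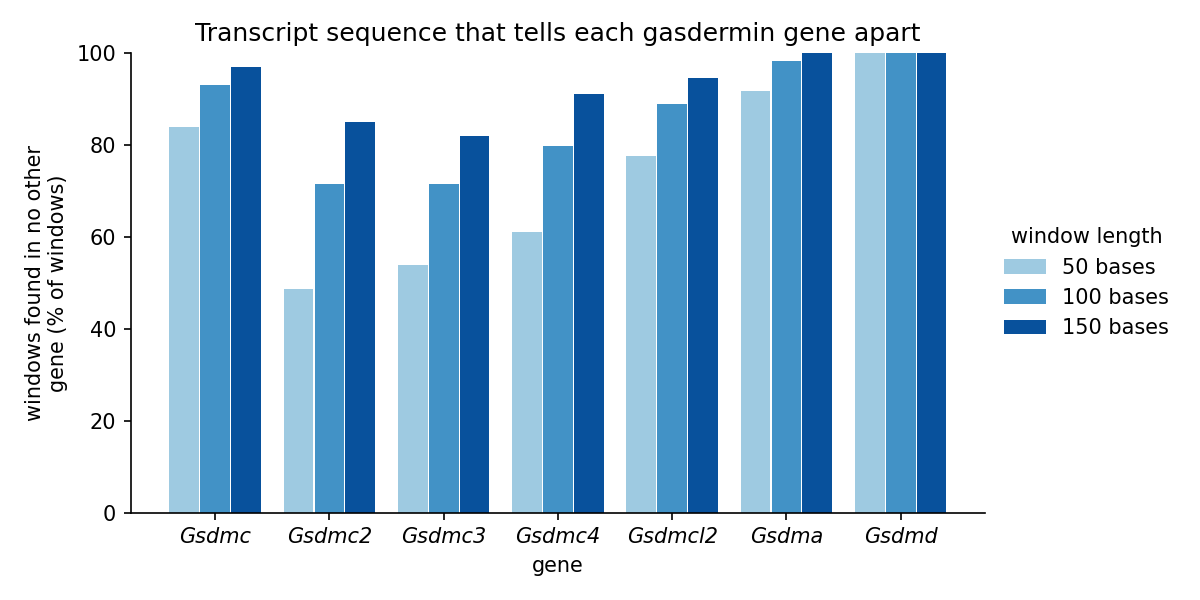
Share of transcript windows of 50, 100 and 150 bases (y axis, percent) that occur in no other annotated gene, for 7 gasdermin genes. Gsdmd is at 100% for all 3 lengths, and Gsdmc2 and Gsdmc3 are the lowest.

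The 4 Gsdmc genes together went from 4 reads in the WT library to 515 in the Exon2KO library. In CPM the sum was 0.255 (95% interval 0.0694 to 0.653) and 32.2 (29.5 to 35.1), a 126-fold higher level in Exon2KO (49.1 to 466). With the 3 Gsdmc-like pseudogenes of the cluster added, the sum was 14 and 548 reads, 38.4-fold higher (22.7 to 70.8). All 4 WT reads of the Gsdmc genes lay in Gsdmc2. In Exon2KO 3 genes of the cluster had reads, and Gsdmc had none in either library.

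Gsdmc4 (ENSMUSG00000055748, chromosome 15, 63891264 to 63912297) had 0 WT reads and 280 in Exon2KO, or 17.5 CPM (15.5 to 19.7). Set against 3 reads in WT it was at least 91.6-fold higher, and the lower counting limit of the ratio, which also carries the error of the Exon2KO reads, was 74.02. Gsdmc2 (ENSMUSG00000056293, 63824346 to 63845177) had 4 and 206 reads, or 0.255 and 12.9 CPM. Its log2 ratio (Exon2KO to WT, with 2 reads added as a prior count) was 5.09, and the interval computed without the prior count was 4.28 to 7.55. Gsdmc3 (ENSMUSG00000055827, 63857724 to 63878558) had 0 and 29 reads, at least 9.49-fold higher against 3 reads, with a lower counting limit of 7.24. Gsdmc (ENSMUSG00000079025, 63775968 to 63808759), the gene at the far end of the cluster, had 0 reads in both libraries, which allows up to 0.191 CPM in WT and 0.188 in Exon2KO. A difference in Gsdmc was not detectable at this depth.

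Per length, on the deposited FPKM scale (reads per kilobase of gene, scaled to library size), the Exon2KO levels were 8.43 for Gsdmc4 (7.47 to 9.48), 5.59 for Gsdmc2 (4.86 to 6.41) and 0.783 for Gsdmc3 (0.524 to 1.12). These intervals did not overlap. Gsdmc4 held 54.4% of the Exon2KO reads of the cluster (49.96 to 58.7, Clopper-Pearson), Gsdmc2 40.0% (35.7 to 44.4) and Gsdmc3 5.63% (3.803 to 7.99). Gsdmc2 and Gsdmc3 differed 7.14-fold in level, and the part of reads shared between paralogs in this difference was not tested. The order was also Gsdmc4, Gsdmc2, Gsdmc3, Gsdmc when reads were divided by the number of windows found in no other gene, with 177, 126, 18.2 and 0 reads per 1000 such windows of 100 bases. With windows of 50 bases, Gsdmc4 exceeded Gsdmc2 by only 1.23 times (225, 200 to 254, against 183, 159 to 210), and those intervals overlapped.

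**Figure D2:**
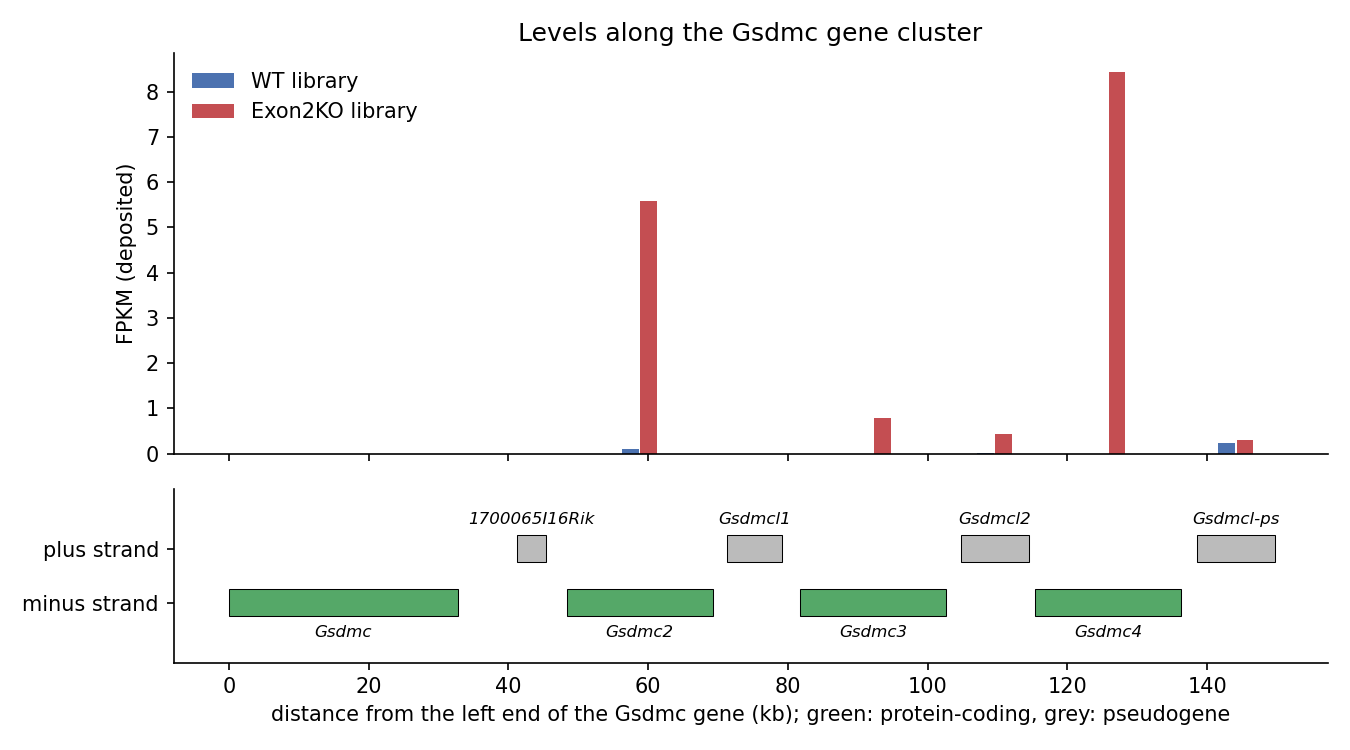
Deposited FPKM (upper y axis) of each gene along the Gsdmc cluster in the WT and Exon2KO libraries, over a map of the genes by strand, with distance in kb from the left end of Gsdmc on the x axis. The Exon2KO bars are highest at Gsdmc4 (8.43) and Gsdmc2 (5.59), and Gsdmc has no reads.

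The cluster also holds pseudogenes on the opposite strand. The one between Gsdmc3 and Gsdmc4, Gsdmcl2, had 1 WT read against 22 in the other library, a ratio of 21.6 (3.49 to 891). Gsdmcl-ps, on the far side of Gsdmc4, had 9 and 11 reads (log2 ratio 0.22, -1.15 to 1.71), and a difference there was not detectable at this depth. Gsdmcl1, between Gsdmc2 and Gsdmc3, and 1700065I16Rik, between Gsdmc and Gsdmc2, had 0 in both. The gene models of these pseudogenes do not overlap the Gsdmc genes, and 89.0% of the 100-base windows of Gsdmcl2 occurred in no other gene. The next protein-coding gene, Fam49b, lies 16.8 kb beyond Gsdmc4 and had 3076 and 2328 reads (-0.43, -0.51 to -0.35). Asap1, the gene after it, had 638 and 400 reads (-0.70, -0.88 to -0.52). On the other side the nearest protein-coding gene, Myc, lies 1786 kb away and had 1631 and 460 reads (-1.85, -2.00 to -1.70). None of these neighbours with reads was higher in Exon2KO.

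A promoter window was at hand for 1 of the 6 members, Gsdmc3, which was among the genes that were higher together. The 250 bases before its start, chr15:63878559-63878808 on the minus strand (RefSeq, GRCm38.p6), are printed 5′ to 3′, and the capitals mark a TATA box match.
Gsdmc3: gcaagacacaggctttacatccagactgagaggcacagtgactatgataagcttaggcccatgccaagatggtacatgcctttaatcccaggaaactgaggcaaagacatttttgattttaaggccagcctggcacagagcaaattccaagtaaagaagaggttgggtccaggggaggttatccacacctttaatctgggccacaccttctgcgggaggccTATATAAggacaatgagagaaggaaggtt

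Motifs were searched on both strands. The TATA box was searched with the letters TATATAA and the core of CDX sites with TTTAT. The HNF4 site was searched with CAAAGTCCA and the STAT6 site as TTC followed by GAA after 4 bases. The TATA box letters were found once, with the first base 29 bases before the start, and are held by 3.04% of all 32851 windows of the same length. The other 3 motifs were not in the Gsdmc3 window, and 37.3%, 0.384% and 5.85% of all windows hold them.

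Gsdmd (ENSMUSG00000022575, chromosome 15, 75862327 to 75867408), which encodes the pore protein of the inflammasome pathway, was the most abundant gasdermin gene in both libraries. Its reads numbered 1414 (WT) and 1113 (Exon2KO), or 90.1 (85.5 to 94.9) and 69.6 CPM (65.6 to 73.8). The log2 ratio was -0.37 (-0.49 to -0.26), short of 2-fold. Among its own neighbours, Zc3h3, Naprt and Eef1d had log2 ratios of -0.16 (-0.65 to 0.32), -0.57 (-0.94 to -0.22) and -0.21 (-0.29 to -0.14). Mafa, with 15 and 18 reads, had 0.21 (-0.83 to 1.33). In FPKM, Gsdmd was at 37.7 in WT and 29.4 (27.7 to 31.2) in Exon2KO, above the 8.43 of Gsdmc4.

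The makeup of the gasdermin reads differed between the libraries more than their sum did. The 10 protein-coding gasdermin genes summed to 1451 reads (WT) and 1690 reads (Exon2KO), a ratio of 1.14 (1.07 to 1.23). Gsdmd held 97.5% of these reads in WT (96.5 to 98.2) and 65.9% in Exon2KO (63.5 to 68.1). The share of Gsdmc4 went from 0 of 1451 reads to 16.6% (14.8 to 18.4), and that of Gsdmc2 from 0.276% (0.0752 to 0.704) to 12.2% (10.7 to 13.8).

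Gsdma (ENSMUSG00000017204, chromosome 11, 98664351 to 98677708) had 2 reads in each library, under the limit of 3 reads, and no fold is given. Its neighbours Gsdma2 and Gsdma3 had 0 reads in both. The locus was not silent as a whole: Psmd3, 4.85 kb after Gsdma, had 1443 and 1404 reads, and Ormdl3, on the other side of the cluster, had 1281 and 1480. Csf3, 23.6 kb after Gsdma, had 0 and 12 reads, at least 3.93-fold higher against 3 reads with a lower counting limit of 2.73. Gsdme, whose product is cut by caspase-3, had 31 and 57 reads (0.81, 0.20 to 1.53), also short of 2-fold. Pjvk, the most divergent family member, had 0 and 3 reads.

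**Figure D3:**
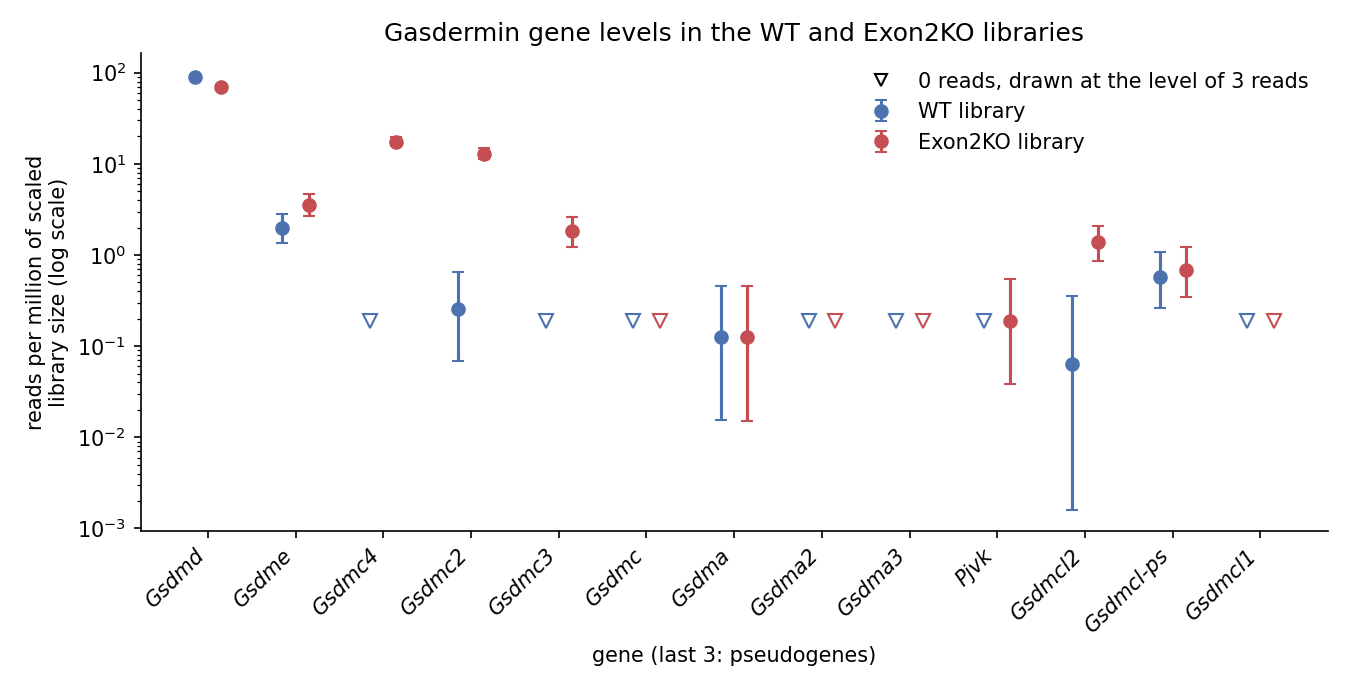
Level of each gasdermin gene and pseudogene in the WT and Exon2KO libraries, in CPM on a log axis, with 95% Poisson intervals. Open triangles mark 0 reads, drawn at the level of 3 reads. Gsdmd is the highest in both libraries, and Gsdmc4 and Gsdmc2 stand at 17.5 and 12.9 in Exon2KO alone.

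Summed over WT and Exon2KO, 17363 genes had 10 or more reads. Of these, 9.38% were at least 2-fold higher in Exon2KO and 8.14% at least 2-fold lower. Of the 6 members, 4 had enough reads. Gsdmc2, Gsdmc3 and Gsdmc4 were past 2-fold higher and Gsdmd was not. These 3 had enough reads only through Exon2KO, the library where they are high, so this count is fixed by the choice of members and nothing is read from it. The authors' deposited table gave log2 fold changes of 11.12 for Gsdmc4, 7.85 for Gsdmc3, 5.62 for Gsdmc2 and -0.37 for Gsdmd, with adjusted p-values of 1.03e-20, 6.09e-05, 3.40e-14 and 0.947. With the biological coefficient of variation set to 0.2, edgeR's exact test gave the deposited unadjusted p-values to within 1% for 100% of 22447 genes. The deposited p-values thus rest on a spread that was assumed and not measured.

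The level of protein-coding genes with at most 3 WT reads was used to place the Gsdmc genes. Among 9080 such genes Gsdmc4 ranked at place 3 by Exon2KO reads and Gsdmc3 ranked at place 49. Gsdmc2, with 4 WT reads, fell outside this set, and Gsdmc, inside it, had 0 Exon2KO reads. Among the genes nearest to Gsdmc4 in Exon2KO reads were Tmeff2 (0 and 237 reads), Fabp2 (0 and 169), Mettl7b (1 and 135), Mgat4c (1 and 134) and Hsd3b3 (0 and 126). Fabp2 encodes the intestinal fatty acid binding protein. This likeness is over 2 libraries only and is a description.

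Because Gsdmc genes are known from gut epithelium, markers of epithelial cells are given beside them. Over all genes with enough reads, 9.38% were past 2-fold higher and 8.14% lower, and the list counts below stand beside these shares. Of the 9 general epithelial markers, 8 had enough reads, and 7 were past 2-fold higher and 0 lower. Their summed level was 78.4 CPM in WT and 283 in Exon2KO, 3.61-fold higher (3.39 to 3.84). Epcam, with 782 and 609 reads, made up most of the WT sum and went the other way (-0.39, -0.54 to -0.23). Without it the sum was 8.56-fold higher (7.76 to 9.45). Krt8 had 160 and 1604 reads and Krt19 had 81 and 1430.

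Of the 13 markers of absorptive colonocytes, the surface cells of the colon, 12 had enough reads, and 8 were past 2-fold higher and 0 lower. Their sum went from 26.3 to 284 CPM, 10.8-fold higher (9.77 to 12.0). Car1, a carbonic anhydrase of colonocytes, had 24 and 1830 reads, and Lypd8, a secreted protein that keeps bacteria from the epithelium, had 129 and 1616. Fabp2 and Aqp8 had 0 reads in WT, against 169 and 12 in Exon2KO, while Krt20 had 31 and 36. The median log2 ratio was 2.48 for this list and 2.38 for the general list, against 0.0035 over all genes with enough reads. Without the prior count, and with counts under 3 set to 3, the 2 list medians were 2.09 and 2.54. Fabp2, Aqp8, Slc26a3, Cyp2c55, Slc51b and, in the general list, Vil1 had enough reads only through Exon2KO. The filter thus fixes these counts and medians in part. Of these genes, Slc51b (8 and 13 reads) was not past 2-fold.

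The Gsdmc reads were also set against these markers within each library. Per 1000 reads of the absorptive markers there were 9.69 Gsdmc reads in WT (2.63 to 24.99) and 113 in Exon2KO (103 to 124), a ratio of 11.7 (4.50 to 43.3). Per 1000 Krt8 reads there were 25 (6.73 to 65.3) and 321 (290 to 355), a ratio of 12.8 (4.88 to 47.9). Set against Car1 the values were 167 (42.0 to 485) and 281 (255 to 311), and the ratio of 1.69 had an interval that included 1 (0.576 to 6.72). Over the 10 genes and marker sums used as denominators the ratio ran from 1.69 (Car1) to 129.8 (goblet markers), with 7.29 for Krt19, 8.94 for Cdx1, 10.3 for Lypd8 and 27.6 for Guca2a. Fabp2 was also chosen as a single denominator, but with 0 WT and 169 Exon2KO reads it gave no ratio. The lower end of the range thus holds only for denominators with WT reads. It was 35.05 for the general epithelial markers and 14.8 without Epcam, so its size depended on the marker. The Gsdmc genes were chosen on these counts and the markers with their values known, so these ratios are descriptions and support no comparison. The part of epithelial RNA in the Gsdmc result was not tested.

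**Figure D4:**
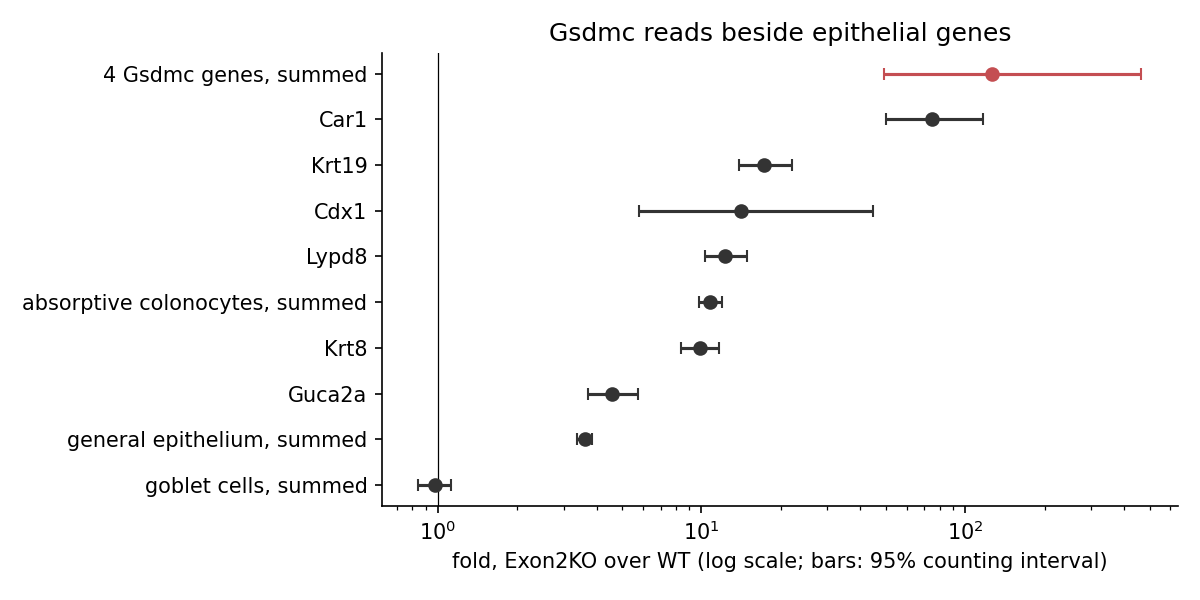
Fold of Exon2KO over WT on a log axis, with 95% counting intervals, for the sum of the 4 Gsdmc genes, single epithelial genes and summed marker lists. The Gsdmc interval (49.1 to 466) overlaps that of Car1 and lies above those of Krt8 and of both summed epithelial lists. The Gsdmc genes were chosen on these counts, so this is a description only.

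Markers of goblet cells, the mucus producers, went both ways. Of 7 goblet cell markers, 1 was past 2-fold higher (Zg16, 41 and 137 reads) and 3 lower, with Clca1 at 105 and 7 reads, Spink4 at 63 and 7 and Fcgbp at 14 and 4. The goblet sum was 24.5 and 23.8 CPM. Of 5 tuft cell markers, Trpm5, Pou2f3 and Il25 had 0 reads in both libraries, Dclk1 had 1 and 0, and Avil had 23 and 14 (-0.67, -1.81 to 0.28). The crypt base markers Lgr5, Ascl2 and Smoc2 had 0 reads in WT and 4, 1 and 0 in Exon2KO, while Rgmb had 20 and 22 (0.10, -0.83 to 1.06). Of 5 enteroendocrine markers 2 had enough reads and 0 were past 2-fold. Of 8 squamous markers, among them those of skin where Gsdma is best known, 6 had 0 reads in both libraries. The defining basal genes Krt14 and Trp63 were among these, Krt5 had 1 and 6 reads, and Krt10 had 85 and 165 reads (0.91, 0.54 to 1.32).

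Among factors that set colon epithelial identity, 5 of the 6 with enough reads (of 7) were past 2-fold higher and 0 lower, with a median log2 ratio of 3.13. This median was 2.81 without the prior count and with counts under 3 set to 3. Cdx1, Cdx2 and Hnf4a had enough reads only through Exon2KO, where they are high, so the filter fixes the count and the median in part. Elf3, an epithelial ETS factor, had 21 and 188 reads (3.02, 2.48 to 3.86). The caudal-type factor Cdx1 had 5 and 72 (3.38, 2.53 to 5.49), and Klf5 had 18 and 88 (2.15, 1.52 to 3.08). Cdx2 and Hnf4a, each with 0 WT reads, had 30 and 17 in Exon2KO, at least 9.82-fold and 5.56-fold higher against 3 reads, with lower counting limits of 7.50 and 4.05. Klf4, which lymphocytes and epithelium both express, had 560 and 613 reads (0.10, -0.06 to 0.27).

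Genes of the type 2 cytokine axis went both ways. Il4ra and Stat6, the receptor chain and the factor through which IL-4 and IL-13 act, had log2 ratios of -0.15 (-0.19 to -0.11) and -0.40 (-0.50 to -0.30). Il4 had 36 and 53 reads (0.51, -0.11 to 1.18), and Il13 had 1 and 9 (1.86, 0.29 to 8.60). Retnlb, a goblet cell product induced by IL-13, had 157 and 16 reads (-3.17, -4.16 to -2.58), and Il13ra1 had 36 and 16 (-1.10, -2.14 to -0.31). In all, 1 of the 6 genes was past 2-fold higher and 2 were lower, of which Il13ra1 fell short of 2-fold with a prior count of 5 (-0.99).

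Upstream of the pores stand the sensors of the inflammasome. Of 14 inflammasome sensors and adaptors 12 had enough reads, and 2 were past 2-fold higher and 3 lower, with a median of -0.20. Over all genes with enough reads the shares were 9.38% higher and 8.14% lower, for this list and those that follow. Pycard, the adaptor ASC, had 636 and 663 reads (0.03, -0.13 to 0.19), and the DNA sensor Aim2 had 589 and 587 (-0.03, -0.20 to 0.14). Nek7, a kinase that assists NLRP3, had 1245 and 1753 (0.47, 0.36 to 0.57). Naip5, a flagellin receptor, had 149 and 53 reads (-1.48, -2.00 to -1.06). The Naip genes are close paralogs, so their counts are uncertain one by one. The other genes past 2-fold had few reads: Nlrp6 (3 and 22) and Naip1 (4 and 18) were higher, and Nlrc4 (21 and 7) and Nlrp3 (8 and 2) were lower. The counting interval of Nlrp3 included no change (-5.30 to 0.30), and with a prior count of 5 its log2 ratio of -0.91 fell short of 2-fold.

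Among the proteases that cut gasdermins, 7 of 9 had enough reads, and 1 was past 2-fold lower and 0 higher, with a median of -0.40. That gene was Gzma, whose product is known for cutting GSDMB, a gasdermin that mice lack. It had 5153 and 164 reads (-4.98, -5.23 to -4.78). Gzmb, whose product can cut GSDME, had 43499 and 63649 reads (0.52, 0.50 to 0.54). Casp1 and Casp4, the inflammatory caspases that cut GSDMD, had 1043 and 680 reads (-0.64, -0.79 to -0.50) and 2225 and 1281 (-0.82, -0.92 to -0.72). Both fell short of 2-fold. Casp8, which can cut GSDMC and GSDMD, had 1362 and 1276 reads (-0.12, -0.23 to -0.01). The neutrophil proteases Elane and Ctsg had 2 and 0 reads in WT and 0 in Exon2KO.

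Of the 4 cytokines and alarmins released downstream of the pores, Il18 was past 2-fold higher, narrowly, with 51 and 107 reads (1.01, 0.55 to 1.55), and short of it with a prior count of 5 (0.98). Il1b had 371 and 329 reads (-0.20, -0.42 to 0.02) and Hmgb1 2149 and 2271 (0.05, -0.03 to 0.14). Among 11 regulators of pores and of membrane repair 1 was past 2-fold lower and 0 higher, with a median of -0.08. Gpx4, a lipid peroxidase that protects membranes, had 17734 and 7963 reads (-1.18, -1.22 to -1.14). Ninj1, which ruptures the membrane after pores form, had 3177 and 2299 (-0.49, -0.57 to -0.42). Irf2, a factor needed for Gsdmd transcription, had 847 and 915 (0.08, -0.05 to 0.22), and the repair genes Chmp3 and Vps4a had 1300 and 1323 reads and 892 in each library. Over these pathway lists and the other gasdermin genes, 9 of 47 genes with enough reads were past 2-fold higher and 7 lower, and 5 of the 9 were the colon factors. Of the 9, Cdx1, Cdx2, Hnf4a, Nlrp6, Naip1 and Il13 reached the read minimum only with their Exon2KO reads, so nothing is read from this count.

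Markers of the remaining cell types are given for completeness. Of 8 myeloid markers 3 had enough reads and 1 was past 2-fold lower, Csf1r, with 14 and 6 reads. Its interval included no change (-2.92 to 0.22), and it fell short of 2-fold under total counts (-0.94) and with a prior count of 5 (-0.81). Lyz2 had 317 and 405 reads. Of 6 stromal and endothelial markers 2 were higher, Lum with 6 and 20 reads and Cdh5 with 0 and 15. Both reached the read minimum only with their Exon2KO reads, so nothing is read from this count. Among 5 B and plasma cell markers 1 was higher and 2 lower. Among 5 markers of cytotoxic and innate lymphocytes 1 was higher (Ncr1, 0 and 10 reads) and 1 lower (Cd8a, 23 and 6). Ncr1 reached the read minimum only with its Exon2KO reads and Cd8a only with its WT reads. Among 9 Treg and T cell markers 1 was higher (Foxp3) and 2 lower (Ikzf2 and Tnfrsf18). The part of these cell types in the gasdermin values was not tested.

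**Figure D5:**
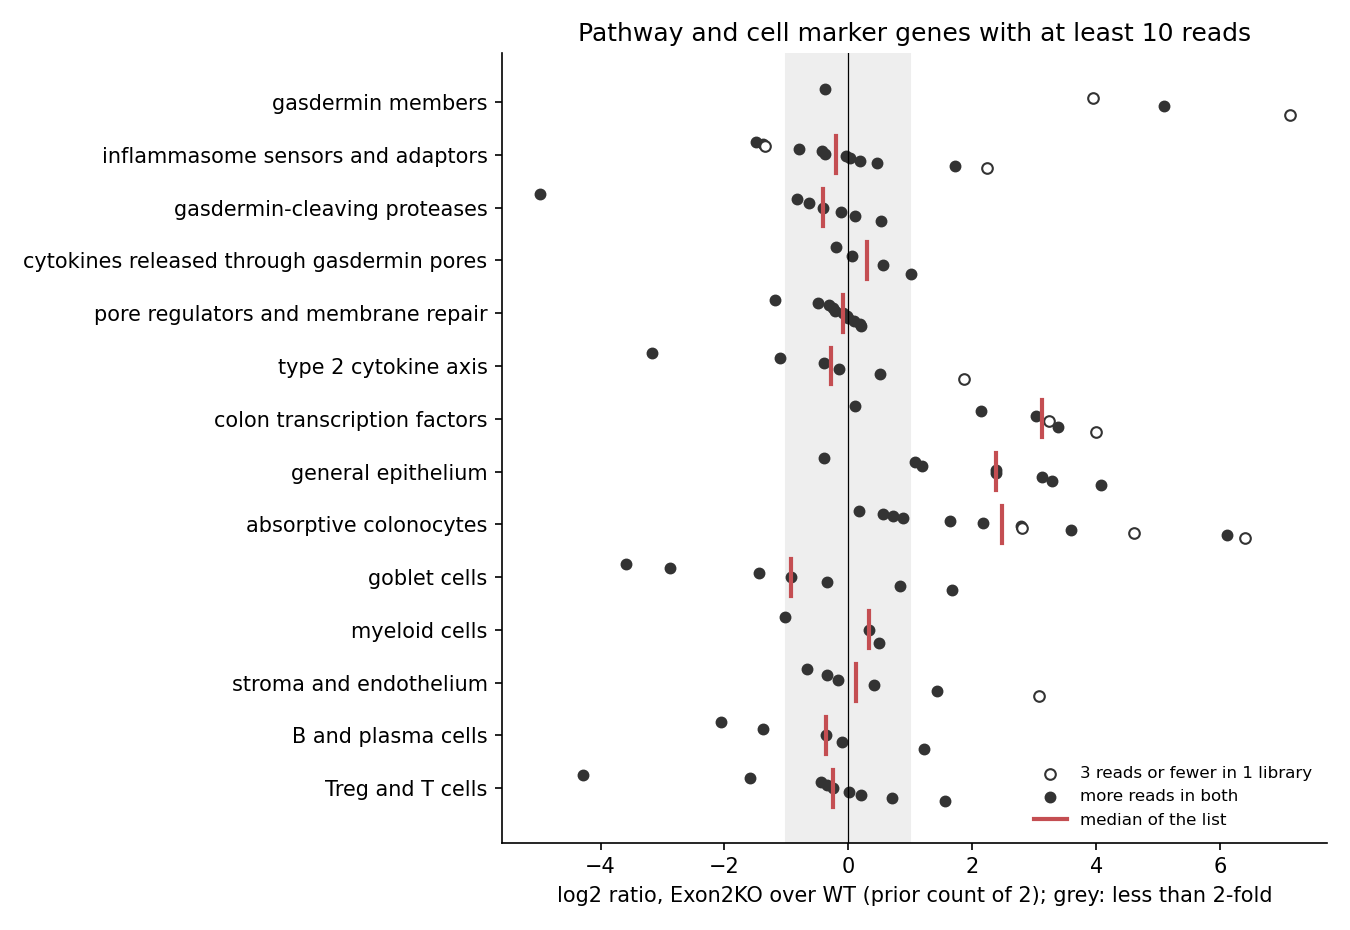
Log2 ratio of Exon2KO over WT (x axis, prior count of 2) for each gene with at least 10 reads, by pathway or cell marker list (y axis), with list medians as red lines and the range under 2-fold in grey. The colon factors and both epithelial lists lie mostly to the right, while most inflammasome, protease and pore regulator genes lie within the grey range.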

How the data were processed

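RNA was sequenced from 1 WT and 1 Exon2KO library. Per the file headers, the authors gave for each gene a raw read count, FPKM, a scaled count signal for both libraries, and the authors' own log2 fold change and p-values. The submitters' processing notes name HISAT2 2.0.5, StringTie 1.3.3b, featureCounts 1.5.0-p3, DESeq2 1.16.1 and build mm10, without their roles. The deposited coordinates equal GENCODE M21 (GRCm38) for all 13 gasdermin genes and pseudogenes.

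The counts were scaled with TMM (edgeR 4.0.16, R 4.3.3; effective library sizes 15694785 and 15988224). A prior count of 2 entered each ratio. The 95% interval of a ratio was converted from the exact binomial (Clopper-Pearson) interval of Exon2KO reads among both, with no prior count. Levels have exact Poisson intervals. Calls were made at 2-fold on genes with 10 or more reads in the 2 libraries together, with no test, since 1 library per genotype gives no spread. Counts of 0 were bounded against 3 reads. Without molecular identifiers reads are not independent molecules, so intervals cover counting error only. Coding sequences were aligned with Biopython 1.88 (pairs) and MAFFT 7.526, and Python 3.11.15 with scipy 1.17.1 was used. The code was tested on simulated data.

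Members and lists were chosen with earlier results of these data known. Genes named from each list have at least 50 reads in 1 library (up to 5 by size of ratio). Other genes were named with their values in view, and so were the unique windows, the markers set against Gsdmc and the motifs. Of the 6 genes most like Gsdmc4, 1 is not reported here. Alternatives covered scaling (DESeq2 1.42.0 size factors, total counts, upper quartile), prior count, read minimum, fold and FPKM.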

Additional observations from a re-analysis of the deposited data

How the results depend on the processing

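The ratios or bounds of Gsdmc2, Gsdmc3, Gsdmc4, Gsdmd and the Gsdmc sum kept their direction under the other scalings and, where one applied, the other prior counts and FPKM, and the ratios stayed within their counting intervals. The log2 ratio of Gsdmd ranged from -0.37 to -0.27. Adding the 3 pseudogenes, an alternative chosen after seeing the data, lowered the log2 ratio of the Gsdmc sum from 6.41 to 5.08, since 10 of the 14 WT reads then lie in pseudogenes. Total counts moved the median log2 ratio of all genes from 0.0035 to 0.11. That scaling turned the sign of some ratios near 0, such as Chmp2a (-0.08 to 0.03), and of no called gene among 117 recomputed. The counts of all genes called, 1628 higher and 1413 lower, became 2643 and 2844 without a read minimum, 649 and 685 with at least 50 reads, 499 and 408 at 4-fold, and 598 and 576 when the counting interval had to exclude 2-fold. The 9 pathway genes called higher became 4 with at least 50 reads, and the 7 called lower became 2 at 4-fold. Depth limits Gsdmc, Gsdma, Gsdma2, Gsdma3 and Pjvk, each with 3 reads or fewer in both libraries. No paired analysis was possible because each genotype has 1 library.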
